A study of Rattus norvegicus with 21 samples.

Results

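MENX rats carry several pituitary adenomas at once, and for 5 of the 9 lesion sample numbers on these arrays more than 1 lesion was hybridised. The 12 arrays of those 5 numbers were taken out of 16 lesion arrays and 21 arrays in all, by a single rule. The number before the dot in the sample name had to occur on 2 or more lesion arrays. Each such number was read as 1 rat. Rat A (08/666, a female of 11 months) gave lesions A1 and A2, and rat B (08/771, a male of 10 months) gave B2 and B3. Rat C (08/592, a male of 10 months) gave C2, C3 and C4, rat D (08/695, a male of 12 months) gave D1, D2 and D3, and rat E (09/1122, a female of 12 months) gave E1 and E2. The digit of each lesion is the one after the dot. All 5 rats were homozygous for the p27Kip1 mutation on a Sprague–Dawley white eye/Wistar–Kyoto background, housed free of specific pathogens and given no treatment that the labels name. The comparison tissue was normal pituitary of 5 wild-type rats of the same background at 6 months, 2 female and 3 male. The remaining 4 lesions, each the only lesion of its number on the arrays, came from females of 7 to 12 months. Genotype, tumor and age all differ between lesions and wild-type pituitaries and cannot be told apart, and sex, age and the first part of the number are fixed within a rat.

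The anterior pituitary holds 5 hormone-secreting cell types. Gonadotrophs make luteinizing and follicle-stimulating hormone, depend on the nuclear receptor SF-1 (gene Nr5a1) and carry the receptor for GnRH, while somatotrophs, lactotrophs and thyrotrophs share the factor PIT-1 (gene Pou1f1), and corticotrophs make the precursor POMC. MENX is caused by loss of the cell cycle inhibitor p27, encoded by Cdkn1b, and the anterior lobe of affected rats develops multifocal adenomas that derive mainly from gonadotrophs. Lesions of the same rat share genome, age and sex. The study's text gives more rats for these lesions than the labels have numbers, and a lower age than that of the 5 rats used here. The labels were used, so that a number standing for 1 rat is a reading of the labels. RNA came from macrodissected tissue. A higher or lower level on such bulk samples can come from more or fewer cells of a type or from more or less RNA per cell, which cannot be told apart.

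All values are log2 levels as normalized by the authors, and a difference of 1 on this scale is a 2-fold change. Each lesion has 1 array, so a difference between single lesions has no replicate error and was given no test. Array medians ran from 6.36 to 6.45 in the 12 lesions. The number of arrays limits the precision.

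The labels call the samples pituitary lesions and name no cell type. The gonadotroph markers differed from wild type in both directions, with 3 of 8 called higher and 2 called lower by more than 2-fold. Over all probe sets 1.94% were called higher and 1.21% lower in this way. Cga, the common alpha subunit of the glycoprotein hormones, was between 13.67 and 13.90 in the 12 lesions (median 13.78) and between 12.44 and 13.23 in wild-type pituitaries. Gnrhr, the GnRH receptor, lay between 11.90 and 12.60 (wild-type range 9.71 to 11.56), and Nr5a1 between 7.76 and 8.59 (wild-type range 6.26 to 7.03). None of these 3 genes was more than 2-fold apart between lesions of any rat. Lhb, the beta subunit of luteinizing hormone, was lower in all 12 lesions, at 6.57 to 7.55 against 8.39 to 10.16. Cdkn1b itself, whose mutation acts on the p27 protein, was at 8.86 to 9.58 in the lesions and 8.65 to 9.11 in wild-type pituitaries. Its within-rat standard deviation (SD) was 0.11. Prl and Gh1, the prolactin and growth hormone genes of other cell types, stayed above 12 on the log2 scale in every lesion, with lowest values of 13.63 and 12.23.

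Lesion C2 stood apart from the other 11. It differed by more than 2-fold from C3 at 917 and from C4 at 1074 of the 29214 probe sets, where C3 and C4 differed at 280. C2 was more than 2-fold above all 11 other lesions at 153 of 14602 named genes and more than 2-fold below all of them at 57, whereas no other lesion reached more than 6 such genes in either direction. The weight that limma estimated for this array was 0.334, against 0.777 to 1.776 for the others. The main counts of differing probe sets and the spreads of several lists are therefore also given without it.

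Lesions of the same rat were closer to each other than lesions of different rats. The number of probe sets more than 2-fold apart was 323 for A1 and A2, 150 for B2 and B3, and 148 for E1 and E2. In rat D it was 233 for D1 and D2, 328 for D1 and D3, and 232 for D2 and D3. Over the 9 pairs of the same rat the mean count was 409 (range 148 to 1074, median 280), and over the 57 pairs of different rats it was 930 (range 219 to 1761, median 895). In an exact one-sided permutation test over all 138600 ways to divide 12 arrays into groups of these sizes, a mean as low or lower had p = 7.94e-05, where the smallest possible was 7.22e-06. Without C2 the means were 242 over 7 pairs and 811 over 48 pairs (exact one-sided permutation p = 0.000115), and within the 3 male rats alone they were 459 and 860 (p = 0.00714 from the same exact test over 280 divisions).

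**Figure D1:**
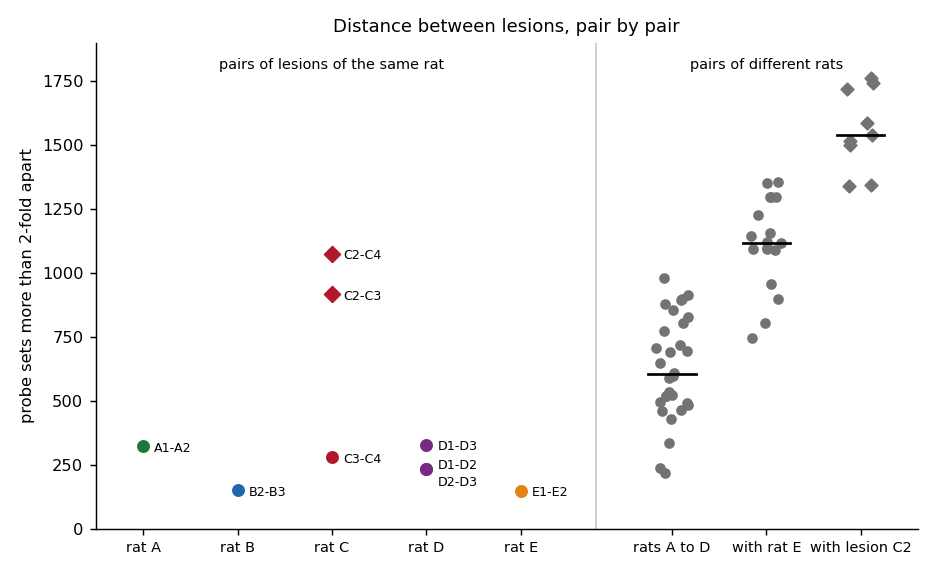
Number of probe sets more than 2-fold apart (vertical axis) for each pair of lesions. Coloured points are the 9 pairs of the same rat, grey points the 57 pairs of different rats, split into pairs within rats A to D, pairs that include rat E and pairs that include lesion C2 (diamonds), with a bar at each median (604.5, 1118.5 and 1541). Pairs of the same rat without C2 lie at or below 328.

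For 11 of the 12 lesions the nearest lesion by this count came from the same rat. The exception was D1, whose nearest lesion was B3 at 219 probe sets, slightly below its distance of 233 to D2. Among named probe sets alone D1 was nearer to D2 (68) than to B3 (98). Rats were not equally far apart. Pairs between rats A, B, C and D without C2 differed at 219 to 982 probe sets (median 604.5), and the 2 lesions of rat E differed from those of other rats at 744 to 1355 (median 1118.5). C2 differed from lesions of other rats at 1341 to 1761 probe sets (median 1541). C2 was thus nearer to C3 and C4 than to any lesion of another rat.

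Gene by gene, the spread between lesions of the same rat was about as large as that between rat means. The median within-rat SD, pooled over the 5 rats, was 0.155 over all probe sets (0.142 without C2), and the median SD of the 5 rat means was 0.137. The within-rat SD was the larger of the pair at 57.5% of probe sets and at 46.4% of those that rose above a level of 6 on any array. Each rat mean is taken over 2 or 3 lesions, so its SD also holds part of the spread between lesions. The intraclass correlation, the share of variance between rats once this part is taken off, had a median of 0.268 over all probe sets. It was 0.398 over those above a level of 6. A gap of more than 2-fold between lesions of at least 1 rat was found at 2250 probe sets (7.7%), and at 1164 (3.98%) without C2. Of the 2250, 1887 passed this limit in 1 rat, 272 in 2, 85 in 3 and 6 in 4, while none did in all 5.

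**Figure D2:**
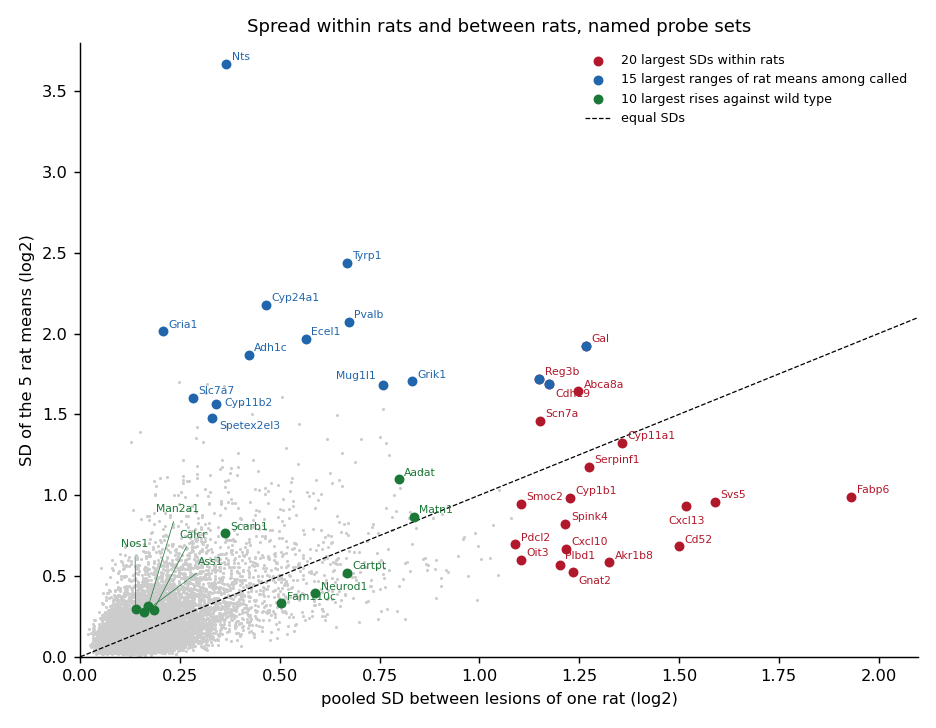
Each grey point is a named probe set, with the pooled SD between lesions of the same rat on the horizontal and the SD of the 5 rat means on the vertical axis, both on the log2 scale. Coloured points are the genes with the 20 largest within-rat SDs (red), the 15 largest ranges of rat means among genes called between rats (blue; Gal, Reg3b and Cdh19 belong to both) and the 10 largest rises against wild type (green). Nts stands alone at the top, Fabp6 lies farthest to the right, and Nos1, Ass1, Man2a1 and Calcr sit near the origin.

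The 20 genes with the largest within-rat SD had SDs from 1.09 to 1.93. Lesion C2 was the highest of the 12 lesions for 13 of them and the lowest for 4. With C2 left out, 8 remained among the 20 largest (Abca8a, Cdh19, Cyp11a1, Gal, Reg3b, Scn7a, Serpinf1 and Spink4), and the SDs of that second ranking ran from 0.74 to 1.32. The order was led by Fabp6, the ileal bile acid binding protein, which was at 11.36 in C2 and at 4.73 to 5.28 in the other 11 lesions, inside or just below the wild-type range of 4.89 to 5.33. Cxcl13, a chemokine that attracts B cells, was at 9.55 in C2 and 3.85 to 4.79 elsewhere, and Svs5, a seminal vesicle secretory protein, was at 10.09 in C2, 6.88 in A2 and 4.50 to 5.30 in the remaining 10. Cd52, a small surface glycoprotein of lymphocytes and of the male reproductive tract, was at 9.72 against 4.64 to 5.23. The aldo-keto reductase Akr1b8 (9.50 against 5.11 to 5.98), the cone transducin gene Gnat2 (8.78 against 4.71 to 5.16) and the matrix protein gene Smoc2 (10.01 against 5.25 to 6.50) showed the same pattern. Oit3 was at 9.36 against 5.33 to 6.00 and the lysosomal hydrolase gene Plbd1 at 10.03 against 5.93 to 6.90. In each of these genes C2 lay above every other lesion without overlap, and without C2 the within-rat SD of Fabp6 fell to 0.06. Cyp1b1, a cytochrome that hydroxylates estrogens, was at 10.85 in C2, 7.30 in C3 and 6.81 in C4, with 6.10 to 8.67 in the other rats. Pdcl2 ran the other way, at 4.45 in C2 and 5.79 to 8.36 in the other 11 lesions, and C2 alone came near its wild-type range of 3.19 to 3.90.

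**Figure D3:**
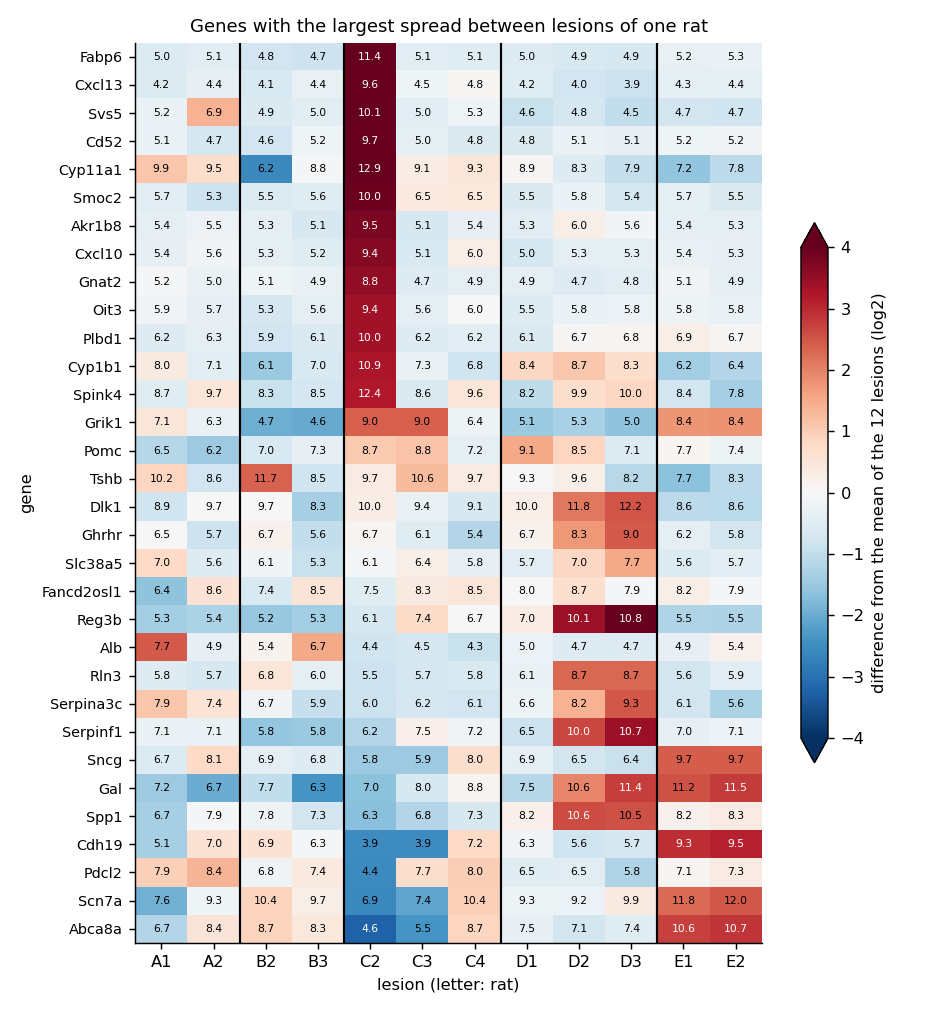
Levels (printed, log2) of the 32 genes with the largest within-rat SD, either over all 12 lesions or with C2 left out, in each lesion. Colour gives the difference from the gene's mean over the 12 lesions, black lines separate the rats, and rows are ordered by that difference in C2. C2 alone is dark red in the upper rows, D2 and D3 lie above D1 for Dlk1, Ghrhr, Reg3b, Rln3, Serpinf1, Gal and Spp1, and C4 differs from C2 and C3 for Cdh19, Scn7a and Abca8a.

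Interferon response genes were the group in which C2 differed most from its neighbours. These genes are switched on by type I and type II interferons, through STAT and IRF factors that bind short promoter elements, and their products block virus replication or load antigen. Of the 21 members measured, 19 were more than 2-fold higher in C2 than in the mean of C3 and C4, with a median difference of 1.94 (background 1.63% of probe sets higher and 1.37% lower, median difference 0.01). Against C3 alone 19 members and against C4 alone 18 passed the limit. Isg15, a ubiquitin-like modifier, was at 9.89 in C2, 6.44 in C3 and 7.42 in C4, with 5.84 to 6.79 in the other 4 rats. The antiviral GTPase Mx1 was at 9.60, 5.93 and 7.64, Rsad2 (viperin) at 10.05, 6.53 and 7.02, and Cxcl10, a chemokine that attracts T cells, at 9.36, 5.07 and 5.96. C2 was highest in all 4, and C4 came between C2 and C3 in each. The members that did not pass the limit were Irf1 (7.38 in C2, 6.70 and 6.74 in C3 and C4) and Ifit1, whose level was 3.11 to 3.43 in every lesion.

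The promoters of 4 of these genes are shown because the list moved together and because an interferon-stimulated response element can be read in them. Sequences are from the RefSeq annotation of GRCr8, 5′ to 3′ on the strand of the gene, and capitals mark GAAA repeated after any 2 bases, on either strand (TTTC repeated in this way where it lies on the other strand). In Oas1a a pair of matches overlap.
Oas1a (chr12:41330366-41330465, plus strand): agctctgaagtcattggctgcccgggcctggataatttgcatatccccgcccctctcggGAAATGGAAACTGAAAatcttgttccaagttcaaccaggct
Ifit3 (chr1:241527226-241527325, plus strand): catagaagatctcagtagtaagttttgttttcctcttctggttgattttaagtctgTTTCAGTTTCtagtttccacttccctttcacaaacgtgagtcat
Irf7 (chr1:205800038-205800137, minus strand): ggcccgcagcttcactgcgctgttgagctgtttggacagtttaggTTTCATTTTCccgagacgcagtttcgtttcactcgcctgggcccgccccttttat
Cxcl10 (chr14:15988816-15988915, plus strand): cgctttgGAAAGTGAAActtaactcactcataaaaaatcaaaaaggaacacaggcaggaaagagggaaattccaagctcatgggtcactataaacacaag
Of the 21 members, 16 had a promoter entry, and in 10 of these the 250 bases before the start held the motif, against 3.29% of all 27456 promoters (902). Of the 16 with an entry, 15 were more than 2-fold higher in C2. All 10 with the motif were among these 15, which so high a share makes likely for any 10 members. The other motifs searched, 1 per list and also on both strands, were the nuclear receptor element AGGTCA for steroid synthesis genes (5 of 12 entries, 13.7% of all promoters), TTTGAA for mitosis genes (13 of 28 and 16.0%) and TCACNCCAC for cholesterol synthesis genes (0 of 12 and 0.976%). The element AGGTCA was searched after the longer AAGGTCA had not been found in the Cyp11a1 promoter. A match describes letters in a window and says nothing of binding.

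Interferon genes also differed between lesions outside C2, by less. In rat A, 20 of 21 members were lower in A1 than in A2, 4 of them by more than 2-fold, with a median difference of -0.66 (background 0.63% of probe sets higher and 0.476% lower in A1). Mx1 was at 5.33 in A1 and 6.53 in A2, and Oas1a, a 2′-5′ oligoadenylate synthetase, at 6.03 and 7.40. In rat C, 18 of 21 were lower in C3 than in C4, 4 by more than 2-fold, with a median of -0.49 (background 0.63% higher and 0.329% lower in C3). The median within-rat SD of the list was 0.67, and 0.29 without C2, against 0.155 and 0.142 over all probe sets. The mean level of the list was 8.82 in C2, 6.14 to 7.05 in the other lesions and 6.29 to 6.98 in wild-type pituitaries. Of the genes for interferons, Ifnb1 was at 4.28 and Ifng at 4.37 in C2, where the other lesions had 4.14 to 4.61 and 4.20 to 4.44. All these values are low on the scale, and the 2 genes were chosen after the values of the list had been seen.

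Markers of immune cells moved in part with the interferon list. Ptprc, the common leukocyte antigen, was at 8.41 in C2, 7.41 in C3 and 7.55 in C4. Cd3g was at 5.12, 3.86 and 4.45, and Ccl5 at 7.75, 6.81 and 7.11. The defining T cell markers Cd3e (5.08, 5.33 and 5.12) and Cd8a (5.78, 5.71 and 5.68) did not differ in this way. The mean level of the 11 T and NK cell markers was 6.09 in C2 and 5.29 to 5.87 in the other lesions, and 0 of them was more than 2-fold higher in C2 than in the mean of C3 and C4. Against C3 alone 1 of the 11 passed the limit and against C4 alone 0. Of the 14 macrophage markers 11 were higher in C2 than in the mean of C3 and C4 (median 0.34), none by more than 2-fold, while 2 passed the limit against C3 alone and 0 against C4 alone. Their mean level was 7.72 in C2 against 7.27 to 7.65 elsewhere. The part of these cells in the interferon difference was not tested.

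Cholesterol synthesis was the second group raised in C2. The enzymes of this pathway and the sterol sensors that control it are driven together by SREBP2 when cell cholesterol is low. Of 14 members, 11 were more than 2-fold higher in C2 than in the mean of C3 and C4 (background 1.63%). All 14 were higher, and the median difference was 1.37. Insig1, which holds the SREBP complex in the endoplasmic reticulum, was at 10.67 in C2, 8.68 in C3 and 8.76 in C4. Fdft1, squalene synthase, was at 9.73, 7.75 and 7.95, and Sqle, squalene epoxidase, at 10.06, 8.41 and 8.59. Over the 11 other lesions these 3 genes spanned 8.16 to 8.76, 7.75 to 8.26 and 8.12 to 8.71. The median within-rat SD of the list was 0.45, and 0.14 without C2. Outside C2 no member was more than 2-fold apart between lesions of any rat. The list mean in C2, 9.77, lay above the wild-type range of 7.84 to 9.15, and those of the other lesions, at 8.29 to 8.71, lay inside it.

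Steroid synthesis genes split within C2. Cyp11a1, the enzyme that cuts the cholesterol side chain in the first step of steroid synthesis, was at 12.85 in C2, 9.09 in C3 and 9.31 in C4. Star, which carries cholesterol into mitochondria, was at 9.62, 6.70 and 6.96, and the electron carrier gene Fdx1 at 9.02, 7.48 and 7.98. Scarb1, the receptor that takes up cholesterol from HDL, was at 12.18, 11.04 and 11.22. These 4 of the 18 were the members more than 2-fold higher in C2 (background 1.63%). Another 4 (Angpt2, Cited2, Cyp11b1 and Fgf13) were more than 2-fold lower (background 1.37%), so that the median difference was -0.03. The enzymes of later steps Cyp17a1 (4.66 in C2) and Cyp21a1 (4.62) were within 4.35 to 4.95 and 4.27 to 4.65 in all 12 lesions. The receptor for ACTH, Mc2r (5.26), and the Leydig cell gene Insl3 (6.74) were within 5.15 to 5.68 and 6.52 to 6.83, and these were chosen after the values of C2 had been seen.

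Cyp11a1 varied between lesions of several rats. It was at 9.93 and 9.52 in A1 and A2, at 6.22 and 8.77 in B2 and B3, at 8.85, 8.29 and 7.87 in D1, D2 and D3, and at 7.25 and 7.77 in E1 and E2. All 12 values exceeded the wild-type range of 4.97 to 5.47. The difference between rats was not called (adjusted p = 0.173 from limma), and B2 and B3 were 2.55 apart and C2 and C3 3.76 apart. In B2 the lower Cyp11a1 came with a lower Cyp11b1 (4.17 against 5.29 in B3), an enzyme of the last step of corticosteroid synthesis.

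Proliferation genes differed within rat C and, by less, within rat D. Of 33 mitosis genes, all were higher in C2 than in the mean of C3 and C4, with a median of 0.67. However, 3 rose by more than 2-fold (Cdkn3, Kif20a and Ttk), against a background of 1.63%. Against C3 alone 9 passed the limit and against C4 alone 2. The background there was 554 and 541 of the 29214 probe sets. In the other 4 rats no member was more than 2-fold apart between lesions, although 32 of 33 were lower in D3 than in the mean of D1 and D2 (median -0.38). The median within-rat SD of the list was 0.29 (0.20 without C2), above the 0.155 (0.142) of all probe sets. Top2a, the topoisomerase of dividing cells, was at 9.49, 8.66 and 8.93 in C2, C3 and C4 and at 9.16, 9.16 and 8.96 in D1, D2 and D3, but at 7.83 and 7.87 in A1 and A2, 7.78 and 7.49 in B2 and B3, and 6.91 and 6.87 in E1 and E2. Its rat means differed by 2.21 (adjusted p = 0.00036 from limma). The lesions of rat E were the lowest of the 12 and still above the wild-type range of 5.56 to 6.17.

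Genes of secretion and of the supporting tissue were lower in C2. Of 14 pericyte and fibroblast markers 13 were lower than in the mean of C3 and C4, 5 of them by more than 2-fold. Their median difference was -0.70. Over all 29214 probe sets 14012 were lower, 1.37% were more than 2-fold lower and 1.63% more than 2-fold higher. Within at least 1 rat 8 of the 14 markers were more than 2-fold apart, and 3 without C2. The matricellular protein Postn was at 5.32 in C2, 7.23 in C3 and 8.08 in C4. Secretory granule genes showed 5 of 19 more than 2-fold lower (median -0.51), among them Snap25, which drives vesicle fusion, at 9.84 against 11.18 and 11.28. Within at least 1 rat 5 of the 19 were more than 2-fold apart, and 0 without C2. Cartpt, the precursor of the CART peptide, was at 10.77 in C2 and 12.70 to 13.48 in the other 11 lesions. Tac1, the precursor of substance P, was at 6.59, 9.14 and 9.88, and the G protein regulator Rgs4 at 7.60, 10.20 and 10.63. Cartpt, Snap25 and Rgs4 each had their lowest value of the 12 lesions in C2. Matn1, the cartilage matrix protein matrilin, followed the same course at 9.79 in C2, 12.16 in C3 and 12.68 in C4. Of 8 gonadotroph markers 5 were lower in C2 than in the mean of C3 and C4, none by more than 2-fold, with a median of -0.16. Gnrhr was at 12.38 in C2, 11.94 in C3 and 12.25 in C4, and Nr5a1 at 8.01, 7.88 and 8.13. Fshb, the beta subunit of follicle-stimulating hormone, was at 6.44, 7.83 and 6.75, and Nr0b1, a repressor of SF-1, at 8.48, 9.19 and 9.69, so that each was more than 2-fold apart within rat C.

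**Figure D4:**
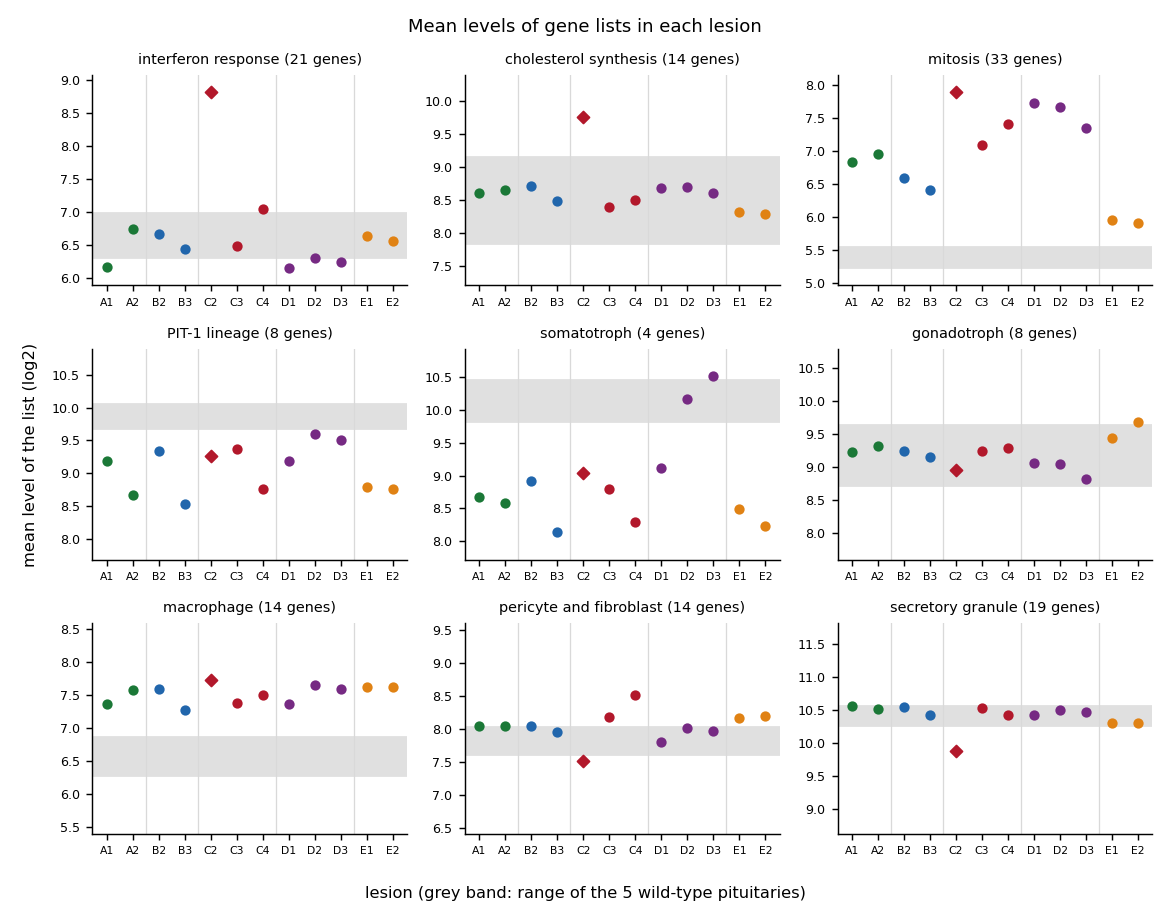
Mean log2 level of 9 gene lists in each of the 12 lesions, coloured by rat, with C2 as a diamond. The grey band is the range of the 5 wild-type pituitaries, and each panel spans the same height. C2 leaves the other lesions for interferon response, cholesterol synthesis and secretory granule genes, D1 leaves D2 and D3 for somatotroph genes, and in the mitosis panel rats A, B and E are apart from each other while the lesions of rats C and D overlap.

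C3 and C4 differed from each other in another set of genes. Cdh19, a cadherin of Schwann cells and their precursors, was at 3.87 in C3 and 7.18 in C4. The sodium channel Scn7a, found in glia, was at 7.39 and 10.43, and the transporter Abca8a at 5.50 and 8.72. For all 3 genes C2 was close to C3, with 3.86, 6.91 and 4.63. The same genes were lower in A1 than in A2 (5.06 and 6.97 for Cdh19, 7.57 and 9.33 for Scn7a, 6.69 and 8.38 for Abca8a) and highest in rat E (9.34 and 9.46, 11.76 and 11.97, 10.58 and 10.71). Grik1, a kainate receptor subunit, ran the other way in rat C, with 9.00, 9.00 and 6.40 in C2, C3 and C4. Of 6 lactotroph markers, 3 were more than 2-fold higher in C3 than in C4, namely Agtr1b (8.02 and 6.75), Angpt1 (7.72 and 6.54) and Trhr (8.57 and 7.48). The background for C3 against C4 was 0.63% higher and 0.329% lower. Prl itself, near the top of the scale, was at 13.82 and 13.70. Of the 9 posterior lobe markers, which include Scn7a, the defining Aqp4 (6.52 and 6.24) and Gfap (5.23 and 5.28) were alike, and Slc1a3 was at 8.11 and 6.89.

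In rat D, lesion D1 differed from D2 and D3 most in Serpinf1, Gal and Reg3b, and somatotroph genes were lower in it. Serpinf1, the anti-angiogenic factor PEDF, was at 6.46 in D1, 9.98 in D2 and 10.74 in D3, and at 5.75 to 7.51 in the 9 lesions of the other rats. The neuropeptide Gal (galanin) was at 7.51, 10.62 and 11.42, and the secreted lectin Reg3b at 7.00, 10.14 and 10.82. Spp1 (osteopontin) was at 8.21, 10.60 and 10.53, and Rln3 (relaxin 3) at 6.11, 8.66 and 8.65. D1 was the lowest of the 3 lesions in each of these genes and D2 and D3 were closer to each other than to it. All 4 somatotroph genes were lower and 2 were more than 2-fold lower in D1 than in the mean of D2 and D3 (median -1.22), where 0.14% of probe sets were higher and 0.483% lower in D1. Ghrhr, the receptor for growth hormone releasing hormone, was at 6.69, 8.29 and 9.02, and Dlk1, a Notch-like protein of somatotrophs, at 9.97, 11.81 and 12.20. Gh1 was at 13.45, 13.83 and 14.01, near the top of the scale, and Pou1f1 at 10.46, 11.10 and 11.44. For Gh1 and Pou1f1 the wild-type ranges were 13.79 to 14.09 and 11.20 to 12.35, so that D3 was inside both. The mean level of the 8 PIT-1 lineage genes was 9.19, 9.60 and 9.51. Of the 20 neuropeptide precursors, 1 (Gal) was more than 2-fold lower in D1, with a median of -0.09. The part of somatotrophs in the differences of Serpinf1, Gal and Reg3b was not tested.

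Pomc ran against the somatotroph genes in rat D, at 9.13 in D1, 8.48 in D2 and 7.09 in D3, all below the wild-type range of 11.21 to 12.48. It was the largest difference of D1 above D2 and D3 among named genes, at 1.35. Between D2 and D3, 0.144% of probe sets were more than 2-fold higher and 0.65% lower in D2, among them 5 named probe sets in each direction. Tshb, the thyrotropin beta subunit, was at 9.55 in D2 and 8.21 in D3.

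In rat B the lesions differed in thyrotroph and somatotroph genes. Tshb was at 11.69 in B2 and 8.52 in B3, the largest difference of this rat among named genes at 3.18, and only B2 reached the wild-type range of 10.86 to 12.49. Of 3 thyrotroph markers 2 (Tshb and Dio2) and of 4 somatotroph markers 2 (Dlk1 and Ghrhr) were more than 2-fold higher in B2, where 0.274% of probe sets were higher and 0.24% lower. Dio2, which activates thyroid hormone, was at 8.34 and 6.96, Ghrhr at 6.75 and 5.59, and Gh1 at 13.15 and 12.23. The PIT-1 list, which shares genes with both, had 2 of 8 members past the limit (Tshb and Ghrhr), with a mean level of 9.34 in B2 and 8.54 in B3. Further genes higher in B2 were Nmu (neuromedin U, 9.50 and 7.54), the kallikrein Klk1c2 (9.87 and 8.11) and Paep (6.65 and 4.92). Besides Cyp11a1, the lower genes included Alb (5.36 and 6.72), Ptgds (6.08 and 7.40), a prostaglandin synthase, and Cyp11b1. The named genes past the limit were 36 higher and 6 lower in B2.

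In rat A the largest difference among named genes was Alb, the albumin gene, at 7.67 in A1 and 4.89 in A2, where the wild-type range was 4.64 to 6.13. Cyp2c22, a liver cytochrome, was at 5.54 and 4.06, and the amino acid transporter Slc38a5 at 6.96 and 5.64. Tshb was again unequal between lesions, at 10.18 and 8.55. Genes lower in A1 were Fancd2osl1 (6.36 and 8.56) and Gucy2c (7.61 and 9.32), the guanylin receptor, beside Cdh19 and Scn7a. Cck, the cholecystokinin precursor, was at 7.33 and 8.87. In all, 26 named probe sets were more than 2-fold higher and 39 lower in A1.

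The lesions of rat E were the most alike. A single named gene was more than 2-fold apart, namely Fshb, at 8.77 in E1 and 9.83 in E2. In both it was above the other 10 lesions, at 6.44 to 7.83, and E2 was inside the wild-type range of 8.83 to 11.56. The background was 0.301% of probe sets higher and 0.205% lower in E1. The next lower in E1 was Gad2, an enzyme that makes GABA, at 6.80 and 7.60, with 4.16 to 5.51 in the other 10 lesions.

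Several lists had no member more than 2-fold apart in any rat, where 7.7% of all probe sets were, a share that gives few members in lists of this size. Among them were the 11 endothelial markers, 20 respiratory chain genes, 15 circadian clock genes and 10 heat shock genes, with median within-rat SDs of 0.18, 0.11, 0.14 and 0.11 against 0.155 over all probe sets. The 3 B and plasma cell markers and the 2 sex-linked genes had none either. The 4 red blood cell genes also had none, but 3 of the 4 were called between rats, where 12.1% of all probe sets were. Hbb was at 11.32 and 11.75 in E1 and E2 and at 9.60 to 10.38 in the other lesions. The part of blood in the distance of rat E from the other rats was not tested.

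Many genes differed between rats. The moderated F test of limma over the 5 rats, with 7 residual degrees of freedom, called 3522 probe sets at an adjusted p under 0.05 (12.1%), of which 2271 had a gene name, and 8073 had an unadjusted p under 0.05. The rat means of 1448 called probe sets spanned more than 1 on the log2 scale. Of the 3522, 338 (9.60%) were also more than 2-fold apart within at least 1 rat, where the share of all probe sets was 7.7%. The count depended on rat E, since 998 probe sets were called without it, 1298 without E1 and 1370 without E2. Without B2 or B3 it was 2272 or 2132, without C2 4367, and among the 3 male rats 896.

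The range of rat means was widest for Nts, the neurotensin precursor, which was at 12.13 and 11.94 in rat E and at 3.38 to 4.80 in the other 10 lesions, which covered the wild-type range of 3.40 to 3.72. Its adjusted p was 2.19e-06, and 0.252 when rat E was left out (limma). Gria1, an AMPA receptor subunit, separated the rats without overlap, with rats B and D closest. It was at 10.01 and 10.10 in rat E, 7.86 to 8.49 in rat C, 7.14 and 7.13 in rat A, 5.28 to 5.70 in rat D, and 5.14 and 5.10 in rat B (adjusted p = 2.23e-06 from limma). Its within-rat SD was 0.21. Cyp24a1, which breaks down vitamin D, was at 10.11 and 9.88 in rat E, 6.90 to 8.42 in rat C and 4.92 to 5.48 in the other 7 lesions.

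Enzyme genes showed other orders of the rats. Adh1c, an alcohol dehydrogenase that also acts on retinol, was at 10.99 and 10.26 in rat B and 9.78 to 10.52 in rat D, against 6.49 to 6.87 in rats C and E (adjusted p = 0.000112 from limma). Rat A lay between, at 7.54 and 8.62, near the wild-type range of 7.68 to 8.59. Cyp11b2, aldosterone synthase, was at 10.49 and 10.20 in rat A, 8.60 to 9.16 in rat C and 6.35 to 7.76 in rats B, D and E. Tyrp1, an enzyme of melanin synthesis, was at 9.66 and 9.08 in rat A and at 10.25 and 9.88 in rat E, but at 4.65 to 6.93 in the 8 lesions of the male rats B, C and D. Rats A and E were the females of the 5, and rat and sex cannot be told apart here. Among the 4 single lesions, all female, Tyrp1 was at 5.25, 5.25, 8.28 and 9.82. Pvalb, the calcium buffer parvalbumin, and Ecel1, a neuronal endopeptidase, were likewise highest in rat E, at 10.76 and 10.86 and at 11.18 and 11.30. Grik1, the amino acid transporter Slc7a7, Mug1l1, Spetex2el3, Gal, Cdh19 and Reg3b completed the 15. Gal, Cdh19 and Reg3b were also among the most variable within a rat, and their calls (adjusted p = 0.0388, 0.0452 and 0.0258 from limma) were lost without any of several lesions. The adjusted p of Gal without E1 was 0.136, that of Cdh19 0.209 and that of Reg3b 0.0728.

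Mitosis was the list with the clearest order of rats. Of 33 members, 32 were called between rats, where 12.1% of all probe sets were. The list had a median within-rat SD of 0.29 and a median SD of rat means of 0.68. The mean level of the list was 7.72, 7.67 and 7.34 in rat D, 7.89, 7.09 and 7.41 in rat C, 6.83 and 6.95 in rat A, 6.58 and 6.41 in rat B, and 5.95 and 5.91 in rat E, all above the wild-type range of 5.22 to 5.54. Lesions of rats C and D overlapped, as C3 lay below all lesions of rat D and C2 above them, and the rest fell into an order without overlap. Ccnb1, cyclin B1, had the lowest adjusted p of the members described here (9.09e-05 from limma), with rat means of 8.79 in rat D, 8.51 in rat C, 7.99 in rat A, 7.47 in rat B and 5.98 in rat E.

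**Figure D5:**
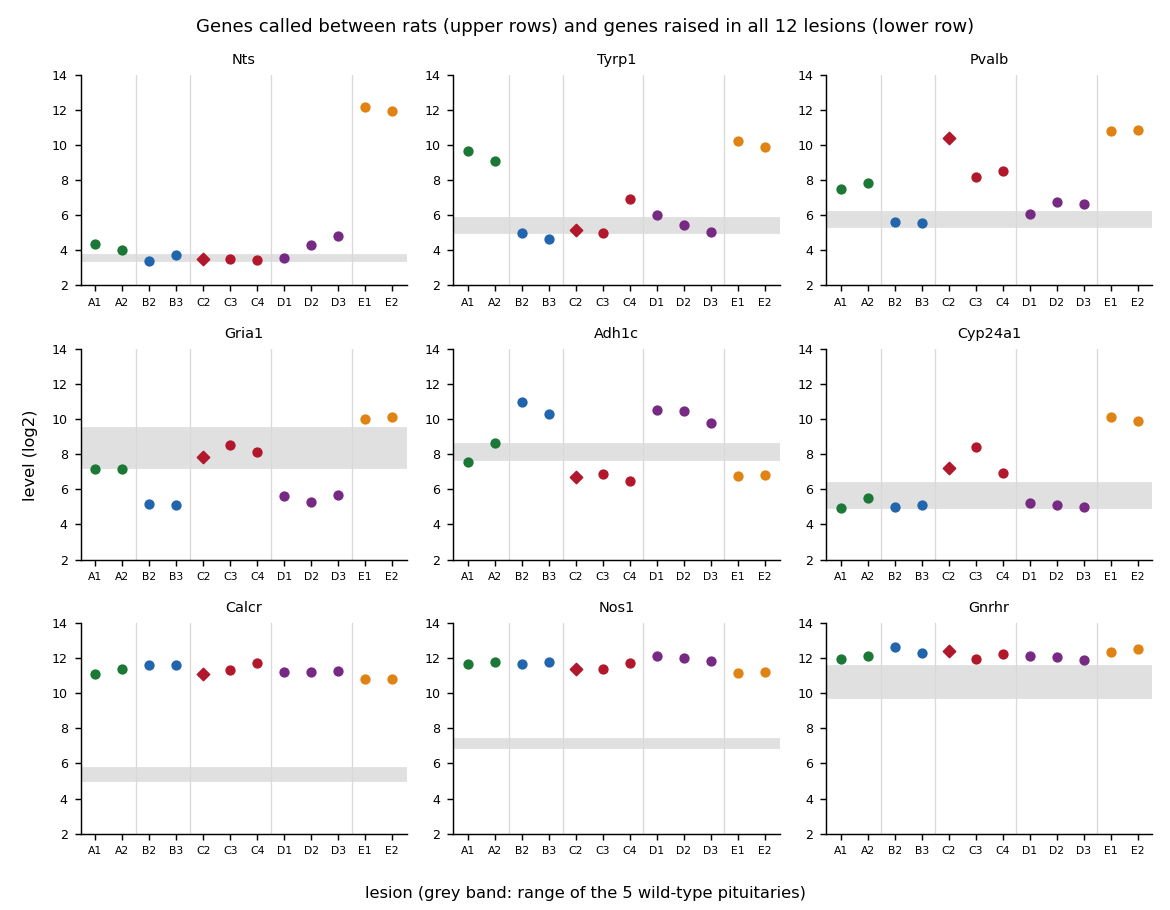
Log2 level of 9 genes in each of the 12 lesions, coloured by rat, with C2 as a diamond and the wild-type range as a grey band. The upper 6 genes are among those called between rats, with Nts high in rat E and Adh1c in rats B and D, while lesions of rat C are more than 2-fold apart for Tyrp1, Pvalb and Cyp24a1. The lower 3, Calcr, Nos1 and Gnrhr, lie above the wild-type range in all 12 lesions.

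The last comparison asked which changes against normal pituitary all lesions of a rat shared. With the lesions of each rat averaged, limma called 922 probe sets more than 2-fold apart between 5 rats and 5 wild-type pituitaries, 568 higher (1.94%) and 354 lower (1.21%) in the lesions. All 12 lesions lay above all 5 wild-type values for 347 of them and below for 185. Of the 922, 313 (33.9%) were more than 2-fold apart between lesions of at least 1 rat, and 119 (12.9%) were so without C2, where the shares of all probe sets were 7.7% and 3.98%. In addition, 365 of the 922 (39.6%) were called between rats, where the share of all probe sets was 12.1%. A change against normal tissue was therefore not always of one size on the arrays of the same rat. With 1 array per lesion, array noise and a difference between tumors cannot be told apart here.

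The largest rises split into genes that were uniform and genes that were not. Calcr, the calcitonin receptor, was at 10.80 to 11.69 in the 12 lesions (median 11.22) against 5.02 to 5.74 in wild-type pituitaries, levels low on the scale (log2 difference 5.76, standard error 0.168, adjusted p = 3.33e-08 from limma). Its within-rat SD was 0.18, and the widest gap between lesions of a rat was that of C2 (11.07) and C4 (11.69). Nos1, neuronal nitric oxide synthase, was at 11.13 to 12.09 against 6.85 to 7.39 (log2 difference 4.55, adjusted p = 8.27e-08 from limma), with a within-rat SD of 0.14. Ass1, which makes argininosuccinate, and Man2a1, a Golgi mannosidase, had within-rat SDs of 0.16 and 0.17 and rose by 4.03 and 3.74 on the log2 scale. The 12 lesions lay above the wild-type range in these 4 genes, as the rule by which the genes were chosen required. No pair of lesions of the same rat was 2-fold apart in any of the 4.

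Other rises were uneven. Matn1 rose by 5.13 with a within-rat SD of 0.84, and Cartpt by 4.73 with 0.67, and both SDs came from C2, since without it they were 0.21 and 0.12. Aadat, an enzyme of kynurenine metabolism, rose by 4.57 and was at 10.16 in C2, 7.42 in C3 and 8.26 in C4. Neurod1, a neurogenic factor, was at 8.62, 10.09 and 10.66 and Fam110c at 10.90, 9.25 and 9.43. Scarb1 rose by 3.78 and was called between rats (adjusted p = 0.00909 from limma), with rat E lowest at 10.07 and 10.15. Spink4, a protease inhibitor of mucosal cells, rose by 3.49 and ranged from 7.84 in E2 to 12.36 in C2.

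Falls were less deep and Pomc was the deepest. Its level fell by 4.37 in log2 units (standard error 0.356, adjusted p = 6.51e-05 from limma) and spanned 6.16 to 9.13 in the 12 lesions, with a within-rat SD of 0.73. Tbx19, the factor that marks corticotrophs, was at 4.89 to 5.83 against 7.17 to 8.24. Among receptors and channels, Gabra4, a GABA-A receptor subunit, fell by 2.99 to 4.88 to 6.24, and the potassium channel Kcnk2 fell by 2.25 with a within-rat SD of 0.18. Lhb fell by 2.24, and Syt1, Gabrb1, Kcnj3, Angpt1 and Capn6 by 2.21 to 2.33. Tshb also fell against wild type (log2 difference -2.50, adjusted p = 0.0037 from limma), but B2 was inside the wild-type range and B3 was not.

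By list, mitosis genes, macrophage markers and SF-1 targets had the highest shares called above wild type. Of 33 mitosis genes 28 were called more than 2-fold above wild type, and 22 had all 12 lesions above. Macrophage markers were called in 9 of 14, with C1qa, a complement subunit, at 8.10 to 8.52 in the lesions and 6.53 to 7.39 in wild-type pituitaries. Of the 14, 5 had all 12 lesions above, and 7 were called between rats, where 12.1% of all probe sets were. Of 18 steroid synthesis genes and SF-1 targets 12 were called above wild type, against a background of 1.94%, but 8 had all 12 lesions above. Within at least 1 rat 9 of the 18 were more than 2-fold apart, but 2 without C2 (7.7% and 3.98% of all probe sets). Unfolded protein and amino acid stress genes were called higher in 5 of 19. Potassium channels were called lower in 6 of 21, and 7 had all 12 lesions below. The lists of PIT-1 lineage and corticotroph genes had 4 of 8 and 3 of 6 called lower (background 1.21%), and the 3 gonadotroph genes called higher were Gnrhr, Nr0b1 and Nr5a1.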

How the data were processed

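RNA of 16 lesions and 5 normal pituitaries was measured on Rat Gene 1.0 ST arrays of Affymetrix, each sample on a single array. The deposited values are log2 levels per probe set, which the authors made by RMA (background correction, sketch quantile normalization and median polish) in Affymetrix Expression Console, with versions not given in the sources used here. Such processing draws the arrays to a common distribution, so that a change of most genes in one direction would not be seen, and levels near the top of the scale understate differences. The values were used as deposited. Groups, sex, age and sample numbers came from the labels, 0 columns were left unused, and no pair of arrays was identical.

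Of 29214 probe sets, 15310 had a single symbol in the platform annotation, 114 were named through the gene table supplied with the study, 323 had several symbols and were not named, and 13467 are unnamed here. Where several probe sets measure a gene, that of the highest mean over the 12 lesions is given. The within-rat SD pools the variance of lesions around their rat mean over the 5 rats. Differences between rats were tested with the moderated F test of limma 3.58.1 in R 4.3.3 on all probe sets, and lesions were compared with wild type by limma on the 5 rat means and 5 wild-type arrays, both with Benjamini-Hochberg adjustment and a threshold of 0.05. The labels do not say how RNA samples of a rat were separated, so p-values measure the spread between these arrays. Counts of differing probe sets were compared between pairs by an exact permutation test (Python 3.11.15, numpy 2.4.6, pandas 2.3.3, scipy 1.17.1; plots with matplotlib 3.10.9). The fits were tested on simulated data.

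Named genes were the 20 with the largest within-rat SD, the 4 largest differences each way per rat (3 for each lesion of a rat with 3), the 15 largest ranges of rat means among called genes, the 10 largest rises and falls against wild type with all lesions on one side, up to 4 members of each list and any a count turns on, Cdkn1b, Cyp11a1 and hormone genes. The rats and lists were chosen with earlier results of these data known. Alternatives covered the filter on dim probe sets, normalization, variance model, array weights, sex, number prefix, thresholds, a replicate block, and leaving out each array or rat.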

Additional observations from a re-analysis of the deposited data

Results flagged for a closer look

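The 4 lesions that were each the only one of their number on the arrays entered none of the main tests above. Of single genes only Tyrp1 was given for them. Among the 20 genes with the largest within-rat SD, 2 that stood out in C2 were also high in 1 of these 4 lesions. There each was more than 2-fold above the wild-type range and the other 11 lesions. Fabp6 was at 8.96 on the log2 scale in the single lesion of rat 08/959, where the highest wild-type value was 5.33. Spink4 was at 11.19 in the single lesion of rat 09/1111, where the highest wild-type value was 5.87. Each is a single array with no replicate, and the differences were not tested. Among 27 genes whose 5 wild-type values were searched for an outlying array, none had one, where chance alone flags about 1 in 20.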

How the results depend on the processing

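Lesions of the same rat stayed closer than lesions of different rats under every alternative run, with a mean count of 242 to 460 probe sets when each lesion was left out (exact one-sided permutation p from 0.000115 to 0.00139). The 2250 probe sets more than 2-fold apart within a rat became 7334 at 1.5-fold and 983 among named probe sets alone, and ranged from 1001 (without rat C) to 2198 over the left-out lesions and rats, with 1164 without C2. The 3522 calls between rats became 1708 without moderation of the variance, 5975 with array weights, 1098 at an adjusted p under 0.01, 896 in male rats alone, 998 in the rats with prefix 08 and 1218 without both C2 and rat E. Leaving out 1 lesion or rat gave 998 to 4367 calls (1298 without E1, 1370 without E2, 2272 without B2, 2132 without B3). The lesion number after the dot marks nothing that the labels name. As a replicate block it gave 2528 calls. Against wild type, leaving out 1 array or rat gave 463 to 643 probe sets higher and 270 to 558 lower, with 558 without the first wild-type array. The cause of these shifts was not tested. Of the single genes called between rats, 364 values over the alternatives kept their side of the threshold and 56 did not, mainly those of Cdh19, Gal and Reg3b, and Nts lost its call without rat E. All 486 values of genes named against wild type kept theirs. Of the counts of list members in C2, 9 stayed within 1.5 times and that of mitosis genes rose from 3 to 9 against C3 alone. The comparisons with C3 or C4 alone, the count of named probe sets, the left-out lesions of the pair test and the fits without C2 were chosen after seeing the data.

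With 1 array per lesion, differences between single lesions have no error of their own. Probe sets near the lowest levels carry little signal over background, and the number of rats limits what the test between rats can call.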

Other observations

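The 4 single lesions were also placed among the 12 by the number of probe sets more than 2-fold apart. The lesion of rat 08/959 was nearest to C3 at 296 and that of rat 09/1026 to C3 at 280. The lesion of rat 09/1111 was nearest to E2 at 412, and that of rat 09/1121 to E1 at 342. Their median counts over the 12 lesions were 936.5, 1019, 704.5 and 1249. Nts was at 3.73, 3.41, 4.89 and 3.72 in these lesions, so that the level of rat E was seen in none of them, whereas Ecel1 was at 8.63, 8.91, 10.04 and 11.46 and Cyp24a1 at 6.09, 6.39, 8.27 and 9.77.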
